A study of Mus musculus with 4 samples.

Results

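Antioxidant enzymes were measured in the dentate gyrus, the granule cell field of the hippocampus. The mice were young male C57BL/6J controls. The set was fixed by name, with no cut on a measured value, though earlier results of these data were known when it was chosen. It holds 10 genes: the superoxide dismutases Sod1 and Sod2, catalase (Cat), the glutathione peroxidases Gpx1 and Gpx4, the peroxiredoxins Prdx1, Prdx2 and Prdx6, thioredoxin (Txn1) and thioredoxin reductase 1 (Txnrd1). Every probe set annotated with 1 of these symbols and no other was taken, which gave 8 of the 10 genes, among 8251 genes named in this way, with 11 of the 12488 probe sets on the array. The 2 probe sets that list Prdx1 also list a Prdx1 pseudogene and were not used, and no probe set was annotated to Prdx6. Of the 11, 10 passed a filter on dim values, a mean log2 intensity of at least 6.91 (an intensity of 120). The exception was a Prdx2 probe set.

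All 4 samples came from mice that were handled by the experimenter and received no other treatment. The hour of each sample, 1, 2, 4 or 6 h, counts from the end of the shocks that experimental mice received alongside, and those mice were not analysed here. Total RNA was extracted. There was 1 array per hour, so no hour has a replicate, neighbouring hours in any order given here cannot be told apart from the scatter of single arrays, and the hour cannot be told apart from the individual array. The sources used here do not say how many mice stand behind a sample or whether RNA was pooled. Values are intensities on a linear scale, in the order 1, 2, 4 and 6 h, and they compare hours within a probe set, not genes with each other.

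Markers of dentate granule cells were present: their list had a probe set past the filter for 7 of 7 measured genes (of 11 listed). Over all genes, 5527 of 8251 had one, so this count alone does not identify the tissue. The 2 brightest were Ncdn, with a mean of 34615 ± 2314, and Calb1, with 2632 ± 265 (SD, n = 4). Prox1 was dim, at 192 ± 40. Marker genes of other cells were present as well, with summed intensities over the hours of 49772 to 57766 for astrocytes, 16163 to 17331 for oligodendrocytes, 7084 to 7803 for microglia and 2202 to 3055 for endothelial and mural cells. Markers of the neighbouring CA fields and of mossy cells were past the filter for 6 of 7 measured genes, with sums of 7924.7, 8220.7, 9320.9 and 7390. Their median at 4 h was 0.29 log2 above the other hours, and their part in the 4 h values below was not tested. In bulk tissue, fewer cells of a type and less RNA per cell cannot be told apart. The 4 h array had the highest median intensity over all probe sets, 212.8 against 184.8 to 187.3 at the other hours.

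These enzymes act in sequence on reactive oxygen. Superoxide dismutases turn superoxide, a by-product of mitochondrial respiration, into hydrogen peroxide, SOD1 mainly in the cytosol and SOD2 in the mitochondrial matrix. Catalase, glutathione peroxidases and peroxiredoxins then reduce the peroxide. Glutathione peroxidases draw on glutathione, and peroxiredoxins such as PRDX2 draw on thioredoxin, which thioredoxin reductase recharges with electrons from NADPH. GPX1, GPX4 and TXNRD1 are selenoproteins, with selenocysteine at the active site. Many genes of this system can be induced by the transcription factor NRF2 (Nfe2l2), which binds antioxidant response elements and is held down by KEAP1.

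NRF2 acts through the antioxidant response element, whose core, TGACNNNGC, was searched for on both strands of RefSeq promoter windows. These windows (assembly GRCm38.p6) run from 250 bases before to 50 after a transcription start, and sequence outside them was not searched. The windows cover 9 of the 10 genes, all but Prdx6. The core was found in 3 of those 9, Prdx1, Txnrd1 and Sod1. Without Prdx1, which has no probe set here, that is 2 of 8, beside 16.7% of the 4454 genes that had both a window and a probe set past the filter. The sites, with the core in capitals and 10 bases on each side, show where in these windows NRF2 induction would be looked for. All lie on the strand opposite to the gene, at chr4:116685456-116685484 (minus strand, 133 bases before the start) for Prdx1, chr10:82859104-82859132 (minus strand, 92 bases before) for Txnrd1 and chr16:90220696-90220724 (minus strand, 56 bases before) for Sod1.
Prdx1: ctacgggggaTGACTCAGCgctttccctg
Txnrd1: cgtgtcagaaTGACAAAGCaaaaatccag
Sod1: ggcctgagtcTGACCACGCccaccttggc

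The GC box GGGCGG, a common element of promoters active in most cells, was present in a window of 8 of these 8 genes and of 70.1% of the 4454. The letters of a TATA box (TATAAA) were present for 2 of the 8, 37 bases before the start in Sod1 and 160 bases before it in Txn1, beside 10% of the 4454. The 2 below are the GC boxes of Cat and Gpx1, picked after the values of these genes were seen. The brighter of the 2 Cat probe sets had a course over the hours close to that of Gpx1, and the dimmer did not. Any part of these boxes in that likeness was not tested. The boxes lie at chr2:103485162-103485187 (minus strand, 24 bases before the start) and chr9:108339078-108339103 (minus strand, 8 bases after the start). A match of letters in these windows is not evidence that a factor binds there.
Cat: caagggtgggGGGCGGtgctgattgg
Gpx1: gaggtgcctaGGGCGGgtctggtcta

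Both superoxide dismutases had narrow ranges. Sod1 (100538_at), the copper-zinc enzyme, read 6332.7, 5202, 6046.2 and 6469.9, a mean of 6013 ± 569 (SD, n = 4), with the 2 h array lowest and a 1.24-fold distance from lowest to highest. Sod2 (96042_at), the manganese enzyme, read 418.4, 342.9, 319.1 and 361.5, a mean of 360.5 ± 42.3 and a 1.31-fold distance, with the 1 h array highest. The hours fell differently, since Sod1 was highest at 6 h and Sod2 was lowest at 4 h and not at 2 h.

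Catalase, the peroxisomal enzyme that splits hydrogen peroxide, was read by a pair of probe sets. On the dimmer one (160479_at) it read 187.9, 133.8, 350.5 and 189.9, the widest range of the set at 2.62-fold. The 4 h array stood 2.08-fold above the mean of the other 3 on the log scale, the 2 h array was lowest, and the 1 h and 6 h values lay 1.01-fold apart. Without either the 2 h or the 4 h sample, no antioxidant probe set spanned over 2-fold. On the brighter one (161877_f_at) catalase read 647.7, 909.1, 1051.1 and 741, a 1.62-fold range. Both probe sets were highest at 4 h, but they disagreed at 2 h, the lowest hour of the dimmer and the second highest of the brighter. After each was centred on its mean, they lay 0.74 log2 apart at 2 h and 0.45 log2 apart as a root mean square over the arrays.

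Of the glutathione peroxidases, Gpx1 (94132_at), the abundant cytosolic form, read 524.8, 754.7, 834.5 and 648.1. It was lowest at 1 h and highest at 4 h, a 1.59-fold range around a mean of 691 ± 134 (SD, n = 4). Gpx4 (94897_at), which repairs lipid peroxides in membranes and guards neurons against ferroptosis, read 1294.7, 996.6, 977.7 and 1063.6. It was highest at 1 h, where Gpx1 was lowest, and its other 3 values lay close together, for a mean of 1083 ± 146 and a 1.32-fold range.

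The peroxiredoxin and thioredoxin branch spanned at most 1.48-fold over the probe sets past the filter. Prdx2, a cytosolic peroxiredoxin abundant in neurons and red blood cells, read 4814.8, 4818.1, 3996.8 and 4566 on the brighter probe set (100331_g_at) and 1894.8, 1345, 1711.7 and 1986.8 on the dimmer (99608_at). The brighter was lowest at 4 h and spanned 1.21-fold, and the dimmer was lowest at 2 h and spanned 1.48-fold, so these probe sets also disagreed on the lowest hour (0.26 log2 apart as a root mean square). The third, 100330_at, read 6.9, 5.1, 13.3 and 10.3, below the floor of 38.3 at every hour, and shows no course. Txn1 (92807_at), the cytosolic thioredoxin, read 3742.5, 4306.7, 3354.7 and 3874.9, and Txnrd1 (99985_at), its reductase, read 675.6, 820.2, 640.5 and 693.3. Both were highest at 2 h and lowest at 4 h, over ranges of 1.28-fold each. With the brighter Prdx2 probe set, whose 1 h and 2 h values were nearly equal, 3 of the 10 were highest at 2 h, against 22.4% of all probe sets past the filter.

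**Figure D1:**
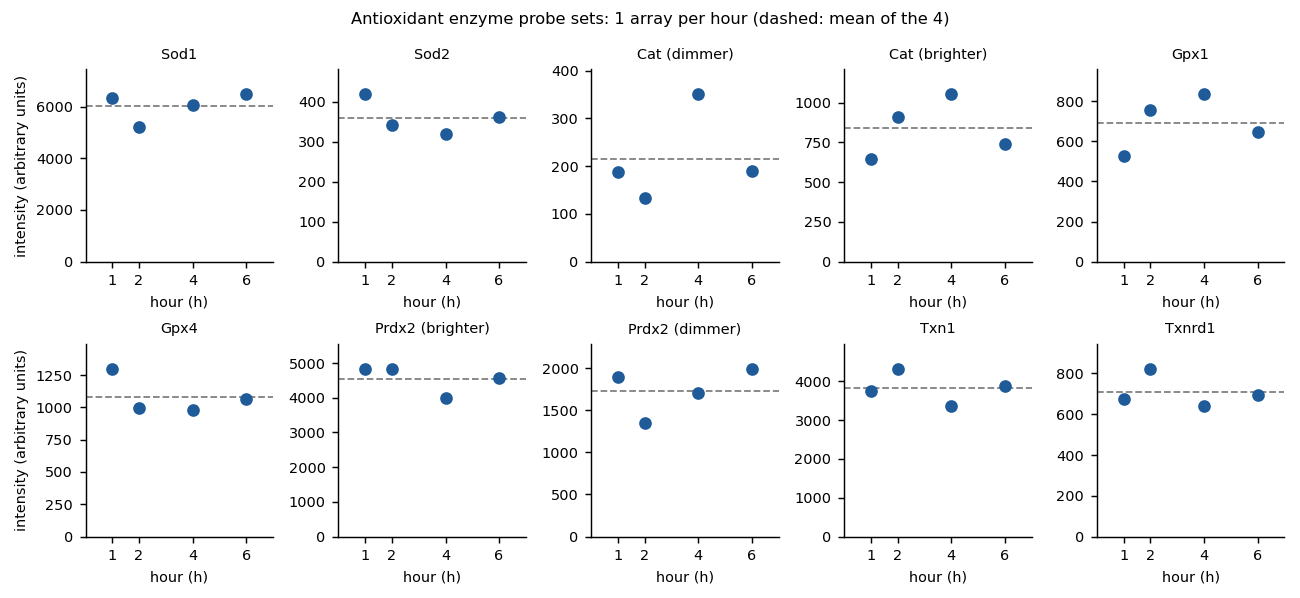
Intensity (arbitrary units, linear axis from 0) of the 10 antioxidant enzyme probe sets past the filter against the hour, with 1 point per array and a dashed line at the mean of the 4 arrays. Only the dimmer Cat probe set, with 350.5 at 4 h and 133.8 at 2 h, spans more than 2-fold.

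Read against the whole array, 1 of the 10 antioxidant probe sets past the filter spanned more than 2-fold between its highest and lowest hour, where 21.6% of all 6500 probe sets past the filter did. A range above 1.5-fold was found in 3 of the 10, Cat on both probe sets and Gpx1, against 52.9% of all. The median SD of log2 intensity over the 4 arrays was 0.18 in the set and 0.27 over all. Scatter was smaller in bright probe sets, and 5 of the 10 lay in the brightest of 4 equal groups of probe sets by mean, where the median SD was 0.19. Compared with the median of their own brightness group, 6 of the 10 had a smaller SD and the 4 others, Cat on both probe sets, Gpx1 and the dimmer Prdx2 probe set, a larger one.

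**Figure D2:**
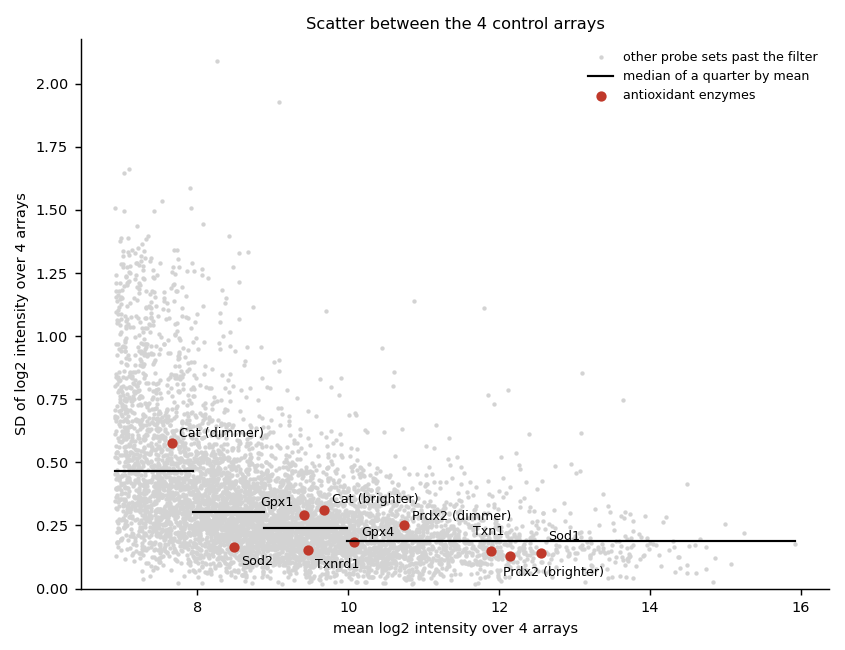
SD of log2 intensity over the 4 arrays against mean log2 intensity for the 6500 probe sets past the filter (grey), the antioxidant enzymes (red) and the median SD in each of 4 equal brightness groups (black lines, 0.47, 0.3, 0.24 and 0.19). The dimmer Cat probe set at the left has an SD of 0.58, above its group's median, and Sod1, Txn1 and the brighter Prdx2 probe set at the right lie below theirs.

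A change with the hour was tested as a linear slope of log2 intensity, fitted with limma across the 6500 probe sets. No antioxidant probe set had a called slope: 0 of 10 had a Benjamini-Hochberg adjusted p under 0.05, and over all probe sets 0% did (0 of 6500). At an unadjusted p under 0.05 there were 0 of the 10 and 136 of the 6500 (2.09%), and the adjusted p in limma was 0.999955 for each of the 10. Slopes were positive in 5 of 10, where 49.9% of all were, and the median slope was 0.01 log2 per h in the set and 0 over all. The steepest were 0.09 ± 0.14 log2 per h for the dimmer Cat probe set, 0.05 ± 0.06 for the dimmer Prdx2 probe set, 0.05 ± 0.08 for Gpx1 and −0.04 ± 0.06 for Gpx4 (SE, n = 4 arrays).

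The fit does not show that levels were constant. Taken over the 5 h between the first and the last array, the 95% interval of the fitted ratio ran from 0.74-fold to 1.63-fold for Sod1, from 0.63-fold to 1.43-fold for Txn1 and from 0.61-fold to 1.35-fold for the brighter Prdx2 probe set. For Gpx1 it ran from 0.66-fold to 2.08-fold and for the dimmer Cat probe set from 0.49-fold to 3.81-fold. A course that rises and falls again, as the values of Gpx1 and the brighter Cat probe set do, gives a shallow slope in this test. Values moved 1 way at every step in 0 of the 10, against 2.6% upward and 2.43% downward over all.

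**Figure D3:**
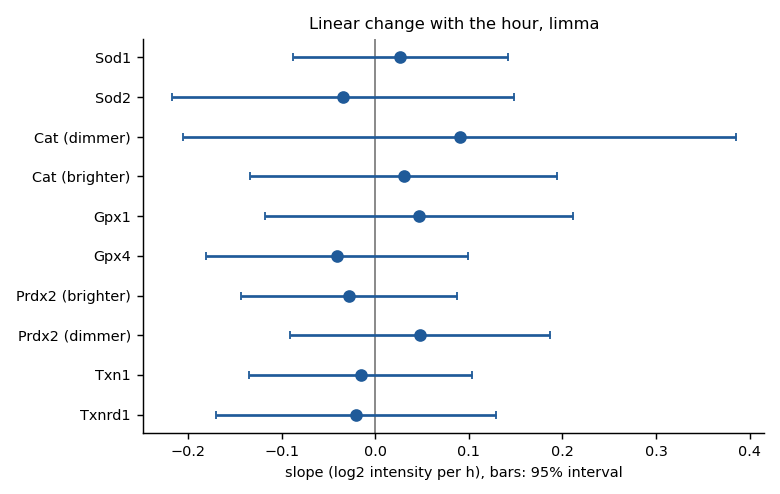
Slope of log2 intensity per h from limma for the 10 antioxidant enzyme probe sets past the filter (points) with 95% intervals (bars). Every interval holds 0, and the widest, that of the dimmer Cat probe set, runs from −0.21 to 0.39.

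The order of the hours fell into 6 different orders of 24 possible ones, and 8 of the 10 probe sets shared theirs with 1 other. Sod2 and Gpx4 ran from 4 h at the bottom through 2 and 6 h to 1 h at the top, an order held by 5.97% of all probe sets. Txn1 and its reductase Txnrd1 ran from 4 h through 1 and 6 h to 2 h (4.17% of all). Sod1 and the dimmer Prdx2 probe set ran from 2 h through 4 and 1 h to 6 h (3.26% of all). The brighter Cat probe set and Gpx1, both of which remove hydrogen peroxide, ran from 1 h through 6 and 2 h to 4 h (6.03% of all).

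After each probe set was centred on its mean, the closest of the 45 pairs was Sod2 with Gpx4, at a root mean square difference of 0.04 log2 over the 4 arrays. Txn1 and Txnrd1 followed at 0.04, and the brighter Cat probe set and Gpx1 at 0.05. Next was the brighter Prdx2 probe set with Txn1 at 0.07, though their orders differed. Sod1 and the dimmer Prdx2 probe set lay 0.1 apart, where the median pair lay 0.3 apart. The brighter Prdx2 probe set was also 0.1 from Sod2 and from Txnrd1, in different orders. Other probe sets were as close. Counting the partner itself, 20 of 6499 were at least as near to Sod2 as Gpx4 was. The counts were 45 to Txn1 as Txnrd1 was, 15 to Gpx1 as Cat was, and 274 to Sod1 as Prdx2 was. Counted from Gpx4, Txnrd1, Cat and Prdx2 instead, they were 6, 33, 13 and 89. These pairs were picked from their values, so the closeness is a description with no test. With each array scaled to its median, Cat and Gpx1 no longer shared an order, and with quantile normalisation Sod2 and Gpx4, and Sod1 and Prdx2, did not. Txn1 and Txnrd1 shared theirs under both of these scalings. The other settings leave the order of values above the floor as it is.

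**Figure D4:**
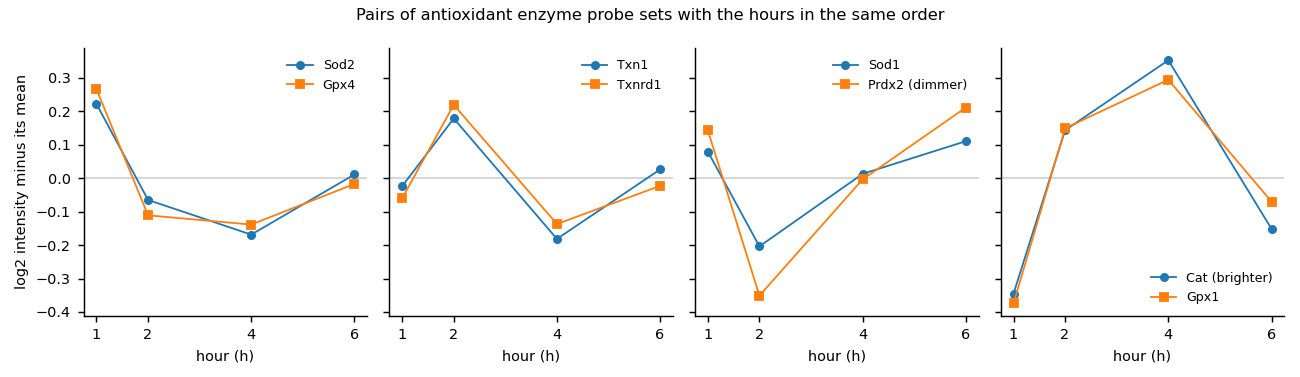
Log2 intensity minus its mean over the 4 arrays, against the hour, for the 4 pairs of antioxidant enzyme probe sets with the hours in the same order (the brighter Cat and the dimmer Prdx2 probe set). Txn1 and Txnrd1 peak at 2 h and dip at 4 h, while Cat and Gpx1 are lowest at 1 h and highest at 4 h.

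At 4 h 3 of the 10 were highest (Cat on both probe sets and Gpx1) and 5 were lowest (Sod2, Gpx4, the brighter Prdx2 probe set, Txn1 and Txnrd1), against 32.9% and 28.4% of all probe sets. The 4 h value minus the mean of the other hours was 1.06 log2 for the dimmer Cat probe set, 0.47 for the brighter and 0.39 for Gpx1. It was −0.24 for both Txn1 and the brighter Prdx2 probe set, −0.22 for Sod2 and −0.18 for both Gpx4 and Txnrd1. Scaling each array to its median puts the median of all probe sets at −0.15 log2 at 4 h, where it is 0.04 as deposited. Gpx1 is then 0.2 above the other hours at 4 h, with its highest value at 2 h, and Sod1 turns from 0.02 to −0.18. With quantile normalisation Gpx4 is lowest at 2 h in place of 4 h.

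Summed over their list, markers of the choroid plexus, a tissue next to the hippocampus, were also highest at 4 h. The summed intensity of the choroid plexus list was 2554.5, 5484.3, 6551 and 3381.1, in the same order of hours as Gpx1 and the brighter Cat probe set. The list has 10 genes, of which 6 had a probe set, 4 were past the filter and 0 lay under the floor at every hour. Its defining gene Ttr, the thyroid hormone carrier of the choroid plexus, read 81.3, 233.6, 2408.1 and 191.2. The 4 h peak of the sum rests on Ttr, without which the sum is highest at 2 h. The median over the markers at 4 h was 0.68 log2 above the other hours. Of the other markers Igf2 read 1849.1, 4402.2, 2954.6 and 2520.8, highest at 2 h, as was the brighter Aqp1 probe set. Igfbp2 read 395.2, 523, 745.7 and 293.9, highest at 4 h. Kl (134.1, 135.3, 203.7 and 167) and the brighter Folr1 probe set (58.2, 51.2, 125.8 and 109.1) were also highest at 4 h. Those of Aqp1 and Folr1 were under the filter. The part of this tissue in the 4 h values of Cat and Gpx1 was not tested.

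Red blood cells, which are rich in catalase, PRDX2 and GPX1, were followed by 8 markers, of which 5 had a probe set and 1 was past the filter. Their summed intensity was 4491.2, 2653.9, 3100.3 and 3928.8, and Car1 lay under the floor at every hour. The alpha globin gene Hba-a1 made up most of it, at 4207.6, 2328.1, 2551.6 and 3814. It was lowest at 2 h and next lowest at 4 h, as were Sod1 and the dimmer Prdx2 probe set. The dimmer markers differed among themselves. Slc4a1, the anion exchanger of the red cell membrane, read 64.2, 212.6, 277.9 and 32.3. Epb42 read 22.4, 37.9, 76.3 and 11.2 on the brighter of its probe sets, with only the 4 h value above the floor. Both were highest at 4 h, as Cat and Gpx1 were. The other Epb42 probe set lay under the floor at every hour. Alas2 read 167.8, 43.2, 166.4 and 39.3, highest at 1 h with the 4 h value close to it. The median over the 5 markers at 4 h was 0.99 log2 above the other hours. That median is the value of the brighter Epb42 probe set, whose other hours were set to the floor. At 4 h against the other hours, Slc4a1 stood at 1.79 log2, Alas2 at 1.34 and Car1 at 0. Hba-a1, the only marker past the filter, stood at −0.39. The part of blood in these values was not tested.

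The dimmer Cat probe set had the widest range of the set, and the 3 probe sets nearest to it after centring were those of the retinol saturase Retsat (129.4, 97.6, 235.3 and 123.8), the mitochondrial import channel Tomm40 (341.9, 238.9, 636.8 and 379.2) and the apoptosis protease Casp9 (254, 202.8, 464.3 and 257.6). Their root mean square differences over the 4 arrays were 0.06, 0.06 and 0.08 log2, and 81 of 6499 probe sets lay within 0.2 log2 of it, so likeness over 4 arrays singles out no gene.

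Relatives of the set were read from lists of the same pathways, with 72 of 93 genes on the array and 56 past the filter through 68 probe sets. None of the 68 had a slope with an adjusted p under 0.05 in limma, 0 of 68 against 0% of all, and 2 had an unadjusted p under 0.05, against 2.09% of all. These were probe sets of Nfe2l1, a relative of NRF2 (69, 121.7, 356.6 and 240.6), and of the glutathione transferase Gstm5 (185.1, 501.7, 177.4 and 82.5), named after their values were seen. Their slopes were 0.39 ± 0.16 and −0.34 ± 0.16 log2 per h (SE, n = 4), and those of the brightest probe set of each gene −0.03 for Nfe2l1 and 0.01 for Gstm5. A range above 2-fold was found in 15 of the 68, against 21.6% of all probe sets. Their median SD was 0.26 log2, beside 0.18 for the antioxidant enzymes and 0.27 for all.

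In the enzyme families of the set, the mitochondrial proteins' genes Prdx3 (1238.7, 1665.6, 1396.5 and 1891.9) and Txn2 (1879.1, 2046.3, 2331.6 and 2100) were lowest at 1 h, where the mitochondrial Sod2 and the mitochondrial reductase gene Txnrd2 (238.6, 123.4, 213.2 and 148.8) were highest. Prdx4, the peroxiredoxin of the endoplasmic reticulum, read 310.7, 275.9, 231 and 184.2, lower at each hour, with a slope of −0.15 ± 0.1 log2 per h (SE, n = 4) and an adjusted p of 0.999955 in limma. Sod3, the extracellular dismutase, read 418.1, 601.5, 451.4 and 414.6, with the 2 h array high.

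Gpx3, the glutathione peroxidase secreted into plasma, had the widest range of its list on the brightest probe set of each gene, at 59.4, 161, 331.5 and 97.3, or 5.58-fold. It placed the hours as Gpx1 did, lowest at 1 h and highest at 4 h. Gpx2, known from gut epithelium, read 385.1, 267.8, 351.5 and 349.5, lowest at 2 h. Neither probe set of Gpx5 passed the filter, and that of Gpx7 lay under the floor at every hour. Txnrd3 read 1247, 1174.9, 1833.6 and 1144.2 on its probe set past the filter, highest at 4 h, and 137.9, 45.9, 222.1 and 33.2 on the other.

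For NRF2 and its targets, 23 probe sets of 17 genes were past the filter. At 4 h 10 of the 23 were highest and 6 lowest, against 32.9% and 28.4% of all probe sets, and 9 were lowest at 1 h, against 24.1%. Nfe2l2, which encodes NRF2, read 312.5, 318.1, 352.2 and 512.3, higher at each hour with a slope of 0.14 ± 0.08 log2 per h (SE, n = 4) and an adjusted p of 0.999955 in limma. Its inhibitor Keap1 was under the filter, at 72.9, 80.3, 33 and 60, as was the target Nqo1 on both probe sets. The heme oxygenase Hmox1, an NRF2 target chosen here after its values were seen, read 626, 854.2, 1068.8 and 818.4, in the order of Gpx1. That order was held by 4 of the 68 related probe sets, Gpx3 and Hmox1 among them, and by 6.03% of all. On the brightest probe set of each gene, the widest ranges of the list were those of the glutathione transferase Gsta4 (121.9, 191.7, 349.3 and 206.2), 2.87-fold, and the biliverdin reductase Blvra (312.5, 227.8, 193.9 and 469.5), 2.42-fold.

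**Figure D5:**
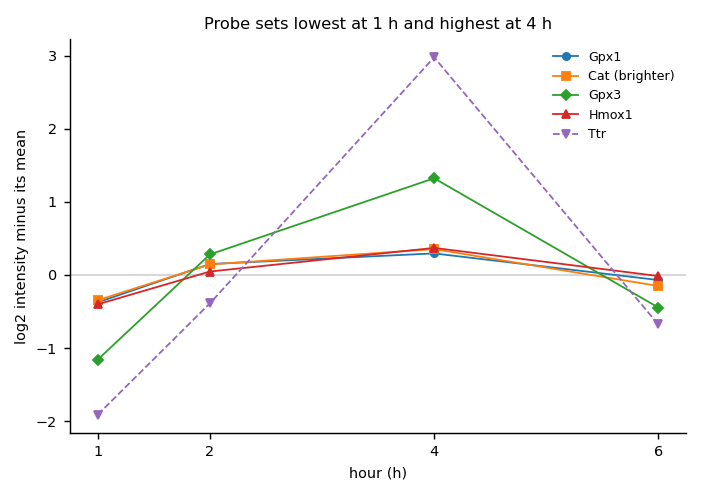
Log2 intensity minus its mean over the 4 arrays, against the hour, for Gpx1, the brighter Cat probe set, Gpx3 and Hmox1 (solid lines) and the choroid plexus marker Ttr (dashed). All have their lowest value at 1 h and their highest at 4 h, where Gpx1 reads 834.5 and Ttr 2408.1. They were picked for that order, and Gpx3 passed the filter only through its 4 h value.

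The glutathione supply did not follow 1 course. Of 15 probe sets of 13 genes past the filter, 5 were highest and 7 lowest at 4 h, against 32.9% and 28.4% of all probe sets. Gclm, the modifier subunit of the enzyme that starts glutathione synthesis, read 434, 361.6, 120.5 and 518.2, with the 4 h array low and a 4.3-fold range. Its catalytic partner Gclc read 547.7, 499, 704.8 and 594.4 and was highest at 4 h. Glutathione reductase (Gsr), which returns oxidised glutathione to its working form, read 626.5, 558.3, 845 and 538.3, and the mitochondrial NADPH source Idh2 read 426.2, 182.4, 485.5 and 358.8, lowest at 2 h.

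Of the 7 listed genes of the selenocysteine machinery, 4 had a probe set and 2 were past the filter. Both were lowest at 4 h, as were 28.4% of all probe sets. Sephs2, the selenophosphate synthetase, read 215.5, 234.8, 61.8 and 220.3. Pstk, the kinase that acts on the transfer RNA of selenocysteine, read 283, 203.8, 104 and 417.6. Of the selenoprotein genes in the antioxidant set, Gpx4 and Txnrd1 were lowest at the same hour, and Gpx1 was highest there. Selenoprotein genes among the relatives past the filter were divided as well. Gpx3, Selenow and Txnrd3 were highest at 4 h, at 331.5, 176.9 and 1833.6, but Gpx3 and Selenow passed the filter only through that hour. Msrb1, at 779.5, and both probe sets of Selenof were lowest at 4 h, and Gpx2 and Txnrd2 were lowest at 2 h. Any link between these genes and the machinery was not tested.

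The bright metallothioneins, metal-binding proteins that also take up oxidants, kept narrow ranges. Mt3, the brain form, read 27021.7, 24668, 21466.3 and 21141.7, lower at each hour, with a slope of −0.07 ± 0.05 log2 per h (SE, n = 4, adjusted p of 0.999955 in limma). Mt1 read 11267.1, 11801.7, 11533.2 and 13636.4, and Mt2 read 18413.7, 15532.4, 15692.7 and 19836.9, both highest at 6 h. Among enzymes that release peroxide, the D-amino acid oxidase Dao read 239.2, 116.2, 248.5 and 42.3, a 5.87-fold range that ends near the floor, and the monoamine oxidase Maoa read 444.5, 417.2, 602 and 530.1, a 1.44-fold range.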

How the data were processed

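The deposited values are array intensities on a linear scale, 1 for each probe set in each sample. The sources used here do not say how the authors made them. With the top and bottom 2% of probe sets left out, each array averaged 500.3, from which a common scaling was inferred, and no further scaling was applied.

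Genes were named from the platform annotation: 10833 probe sets carried 1 symbol, 396 several, 1193 none, and 66 were array controls. Of the 10833, 10817 matched a RefSeq gene by identifier (GRCm38.p6). Intensities under the 20th percentile (38.3) were set to it before log2. Probe sets at or above the 40th percentile of mean log2 were fitted on the hour by lmFit and eBayes (trend on) of limma 3.58.1 under R 4.3.3. The residual degrees of freedom were 2 and the prior ones 9.78, and p-values were adjusted over all 6500. Nothing states that the samples are separate animals, so p-values measure only the spread between these arrays about a line, and their number limits the precision.

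The members and lists were chosen with earlier results of these data known. Named were every member probe set, other members of their families, the 2 genes of each related list with the widest range on their brightest probe set, the 2 brightest markers of the granule cell list, and the 3 probe sets nearest to the widest member. Other genes named from the lists were chosen after their values were seen. Alternatives changed the floor, filter, scaling, probe set choice, variance model and hour scale, and left out each sample.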

Additional observations from a re-analysis of the deposited data

How the results depend on the processing

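With limma, 0 antioxidant probe sets had a called slope in each of 13 alternatives, and the related genes had 0 too. Over all probe sets the count was 0 under each alternative with all 4 samples. It ran from 0 to 18 without a sample, with 18 without the 1 h sample, 3 without 2 h, 0 without 4 h and 2 without 6 h, where 3 arrays leave 1 residual degree of freedom. The sign of an antioxidant slope changed in 8 of 10 probe sets when 1 sample was left out, and in 0 under the other alternatives, and no such slope was called. The number of antioxidant probe sets spanning over 2-fold was 1, and it was 0 with the brightest probe set of each gene, which drops the dimmer Cat probe set. Without a sample it ran from 0 to 1. Their median SD ran from 0.16 to 0.24 log2 over the alternatives, against 0.23 to 0.34 for all probe sets. No paired analysis was possible because the samples form 1 group with 1 array per hour. Signals near the floor limit what can be read from the third Prdx2 probe set, Gpx7 and Keap1.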
